A study of Homo sapiens with 2 samples.

Results

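The genes described here carry the symbol ZNF followed only by a number, the name given to zinc-finger genes that received a serial number rather than a functional one. They were measured by RNA-seq in RKO cells, a human colorectal carcinoma line. 1 library came from cells transfected with siNC, a control siRNA, and 1 from cells transfected with siHNRNPM, which targets the RNA-binding splicing factor HNRNPM. The genotype is labelled WT in both, and the sample title of the siHNRNPM library, KDM-RKO, is not expanded in the labels. Genes were chosen by their reads: a row was kept when both libraries together held 400 or more. Of 54261 rows in the count table, 478 had such a symbol and 227 of these reached 400 reads. Another 196 had fewer reads and 55 had none. Because the rule adds up raw reads of both libraries, a gene near the limit could pass through the library in which it was higher. With siHNRNPM reads set to the control level, 7 of the 227 would fall under 400, among them ZNF845, ZNF836 and ZNF480, which are described below as higher. With control reads set to the siHNRNPM level another 7 would, among them ZNF322, ZNF709 and ZNF350, which are described as lower. Just under the limit stood ZNF792 with 392 reads, ZNF624 with 395 and ZNF485 with 397. Just inside it stood ZNF571 and ZNF574 with 400 each and ZNF14 with 404.

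Most of these genes encode C2H2 proteins, in which repeated fingers, each folded around a zinc ion by a pair of cysteines and a pair of histidines, contact DNA or RNA. Many also carry a KRAB box near the N terminus, which recruits TRIM28 and through it the histone methyltransferase SETDB1, heterochromatin protein 1 and the NuRD complex to silence bound sites. A large share of their targets are transposable elements, and the KRAB genes lie in clusters of tandem copies, above all on chromosome 19. A SCAN domain, found in another subset, lets the proteins form dimers. Others work in transcription from promoters, in RNA processing or on the ribosome.

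Reads assigned to genes totalled 13056118 for siHNRNPM and 19931360 for the control. HNRNPM stood at 79.6 CPM (reads scaled to library size) in the siHNRNPM library against 144 CPM in the control, or 55.2% of the control level, so the labels and the targeted gene go the same way. With 1 library of each kind there is no replicate check, no p-value is given, and every interval is a 95% counting interval that leaves out variation between cultures. In bulk RNA, fewer cells with a transcript and less transcript per cell cannot be told apart. Of 6 epithelial markers all 6 had a read, with a summed level of 79.2 CPM in the siHNRNPM library and 69.0 in the control. Nearly all of it came from KRT8, KRT18 and EPCAM. CDH1 had 1 read in the siHNRNPM library and 10 in the control, KRT19 1 and 1, and CLDN4 1 and 2. Of 7 colon markers CDX1, KRT20 and MUC2 were at 0 in both libraries, and the list summed to 8.33 and 10.7 CPM. Markers of liver cells summed to 35.1 CPM in the siHNRNPM library and 0.754 in the control, with 11 and 5 of 14 detected. ALB, APOB, APOH, FGA, FGB and HNF4A were at 0 in the control alone, and APOA1, FGG and TTR in both. Most of these reads came from SERPINA1, with 177 reads in the siHNRNPM library and 6 in the control, AFP, with 174 and 1, and ALB, with 77 and 0. The source of the liver transcripts and their part in the results below were not tested. Mesenchymal markers summed to 29.0 and 29.3 CPM with 5 and 4 of 6 detected, and endothelial markers to 0.229 and 0.201 with 3 and 2 of 3. Leukocyte markers summed to 885 and 765 CPM, nearly all of it from CD68, with PTPRC at 0 and 2 reads and CD3E and LYZ at 0.

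As a family the numbered ZNF genes kept nearly the same share of the transcriptome, and a small set of KRAB genes on chromosome 19 stood well above it in the siHNRNPM library. The 227 genes took 1.06% of reads in the siHNRNPM library and 1.05% in the control. Their pooled log2 ratio, siHNRNPM over control, was 0.01 (0.00 to 0.02). The median gene had a log2 ratio of 0.04 with quartiles at -0.14 and 0.18. Over all 9110 genes with 400 or more reads the median was -0.02 with quartiles at -0.19 and 0.13. The pooled and the middle value of the family therefore lay close to those of the whole table.

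A gene was counted as higher or lower by 1.5-fold when its ratio passed that size and its counting interval excluded a ratio of 1. By this rule 8 ZNF genes were higher and 4 were lower, or 3.52% and 1.76% of the 227. Over all genes with 400 or more reads, 1.34% were higher and 2.47% lower by the same rule. By 2-fold, ZNF548, ZNF616 and ZNF761 were higher and ZNF862 was lower, where 0.274% and 0.22% of all genes passed. At any size, the interval lay wholly above a ratio of 1 for 65 ZNF genes (28.6%) and wholly below it for 48 (21.1%), against 23.7% and 31.4% of all genes. The remaining 114 spanned a ratio of 1. ZNF genes had fewer reads than the table as a whole, with a median of 1084 against 1778, and fewer reads widen the interval. Among genes with 400 to 2000 reads, 52 of 187 ZNF genes had an interval above 1 and 31 below it, beside 1027 and 1293 of 4969 genes in the table. With 1 library on each side these shares describe the libraries and were not tested.

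**Figure D1:**
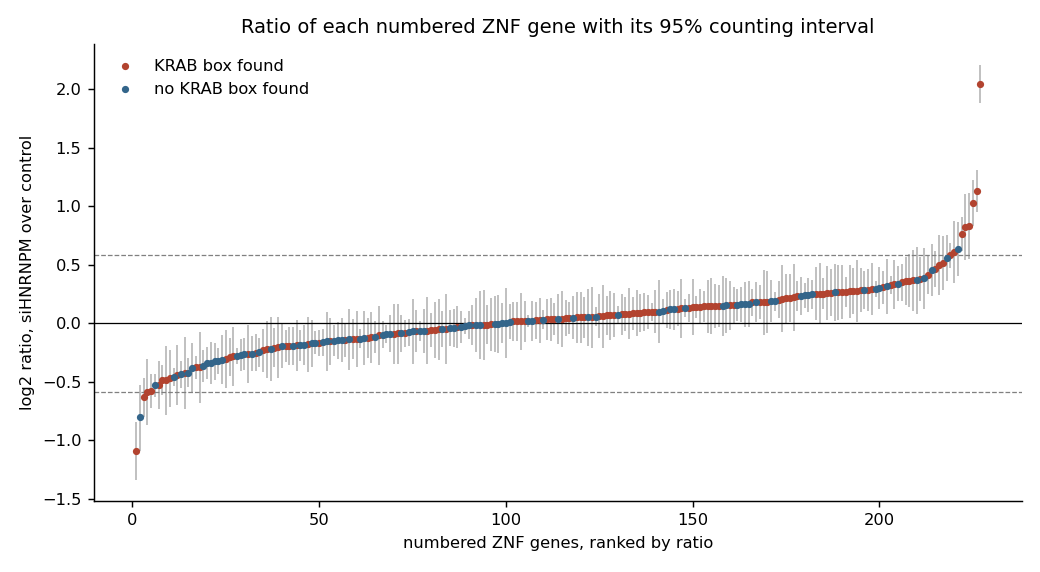
Log2 ratio of the siHNRNPM over the control library for the 227 numbered ZNF genes in ascending order, with 95% counting intervals as vertical lines; dashed lines mark 1.5-fold. Most genes lie between the dashed lines, ZNF548 stands alone at 2.04 at the upper end and ZNF862 lies at -1.09 at the lower end.

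ZNF548, a KRAB gene at chr19:57389850-57402992 on the plus strand with 11 fingers, had the highest ratio of the family. It stood at 85.3 CPM in the siHNRNPM library (1116 reads) and 20.7 CPM in the control (412 reads). The siHNRNPM library was thus higher by 4.12-fold, a log2 ratio of 2.04 (1.88 to 2.21), far past the next gene. Its exons share 6.40% of their bases with a gene on the same strand, and no alternative scaling took it below 2-fold.

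The neighbours of ZNF548 did not share this ratio. It lies in the most distal of 15 groups into which the chromosome 19 members fall when neighbours within 1 Mb are joined, at chr19:57191500-58418327. The other members there included ZNF264 at 41.9 against 62.7 CPM, siHNRNPM against control, a log2 ratio of -0.58 (-0.73 to -0.43). ZNF805, a close paralog of ZNF264 that lies near it, stood at 30.9 against 48.0 CPM, a log2 ratio of -0.63 (-0.80 to -0.46). ZNF264 reached 1.5-fold with DESeq2 size factors (-0.59) and not otherwise. ZNF264 and ZNF805 were thus lower while ZNF548 was higher, and the remaining 10 members of the group had a median log2 ratio of 0.10, from -0.19 to 0.37. Another 12 ZNF rows there had 30 or more reads but were not in the chosen set, with a median of 0.26. Of these 10 were positive, 3 had an interval wholly above a ratio of 1 and 0 wholly below it. ZNF805 shares 7.55% of its 50-base stretches with another gene, mainly ZNF264, so reads of these paralogs may have been split between them.

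Of the 8 genes higher by 1.5-fold, 6 lie in another group on the same chromosome, which spans chr19:51571298-53458261 and holds 22 members, each with a KRAB box. It is called the ZNF616 cluster here, and it was singled out among the 15 groups after the values were seen. 18 of its 22 members (81.8%) had a positive log2 ratio. Intervals lay wholly above a ratio of 1 in 13 (59.1%) and wholly below it in 2 (9.09%). Of all genes that reached the read limit, 45.9% had a positive log2 ratio. Their intervals lay above a ratio of 1 in 23.7% and below it in 31.4%. For the 114 KRAB genes outside the cluster, the positive share was 62.3%, with 26.3% above and 17.5% below. The median log2 ratio of the cluster was 0.25. Without the cluster 205 ZNF genes remain, with a median of 0.02 and 2 genes higher by 1.5-fold, or 0.976%. The higher count of the family over the table therefore rested on this cluster. It also rested in part on the read limit, since ZNF845, ZNF836 and ZNF480 had to be higher in the siHNRNPM library to pass it. With a limit on control reads alone, set after seeing the data, 5 of 224 ZNF genes were higher by 1.5-fold (2.23%, against 1.09% of all genes so chosen). The cluster then kept 18 genes, of which 3 were higher by 1.5-fold and 14 had a positive ratio, with a median of 0.25. Among the other groups with at least 6 members, medians ran from -0.12 to 0.15.

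Within the cluster, ZNF616 stood at 48.0 CPM in the siHNRNPM library (628 reads) and 21.9 CPM in the control (436 reads). Its log2 ratio was 1.13 (0.95 to 1.31), a 2.19-fold difference. ZNF761, at the distal end, stood at 38.2 against 18.8 CPM, a log2 ratio of 1.03 (0.83 to 1.22). These genes lie at opposite parts of the cluster, so the high values were not confined to adjacent copies. ZNF845 stood at 17.3 against 9.71 CPM, a log2 ratio of 0.83 (0.55 to 1.12). ZNF836 stood at 17.4 against 9.86 CPM, a log2 ratio of 0.82 (0.54 to 1.10). ZNF836 lies next to ZNF616, and ZNF845 near ZNF761. ZNF320 stood at 61.6 against 36.4 CPM, a log2 ratio of 0.76 (0.61 to 0.91). ZNF480 stood at 18.0 against 11.8 CPM, a log2 ratio of 0.61 (0.34 to 0.88). ZNF525 followed at 0.50 (0.24 to 0.75), under the limit of 1.5-fold. Members at the proximal end went the other way, with ZNF175 at -0.19 (-0.33 to -0.06) and ZNF350 at -0.38 (-0.68 to -0.07). ZNF350 had to be higher in the control to pass the read limit. ZNF808, in the middle, was at -0.06 (-0.20 to 0.09).

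Other genes between or overlapping these copies had mixed ratios. PPP2R1A, which encodes a scaffold subunit of protein phosphatase 2A, had 3394 and 5387 reads in the siHNRNPM and control libraries and a log2 ratio of -0.06 (-0.13 to 0.00). TPM3P9, a tropomyosin pseudogene, had 133 and 89 reads and a log2 ratio of 1.18 (0.78 to 1.59). It lies at chr19:53431984-53444670 on the plus strand and overlaps ZNF761 at chr19:53431993-53458261 on the same strand. TPM3P9 and ZNF761 may therefore share reads, which was not tested. SPACA6 had 12 and 67 reads and a log2 ratio of -1.88 (-2.90 to -0.98). The 9 ZNF rows of the cluster with 30 or more reads that were not in the chosen set had a median of 0.12, and 5 of them were positive. Over the whole of chromosome 19, the 470 genes outside the chosen set with 400 or more reads had a median log2 ratio of 0.02. Their intervals lay above a ratio of 1 in 28.7% and below it in 19.4%. The 98 chosen ZNF genes of this chromosome had a median of 0.09, with 34.7% above and 16.3% below. Without the ZNF616 cluster, 76 of them remain, with a median of 0.05.

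**Figure D2:**
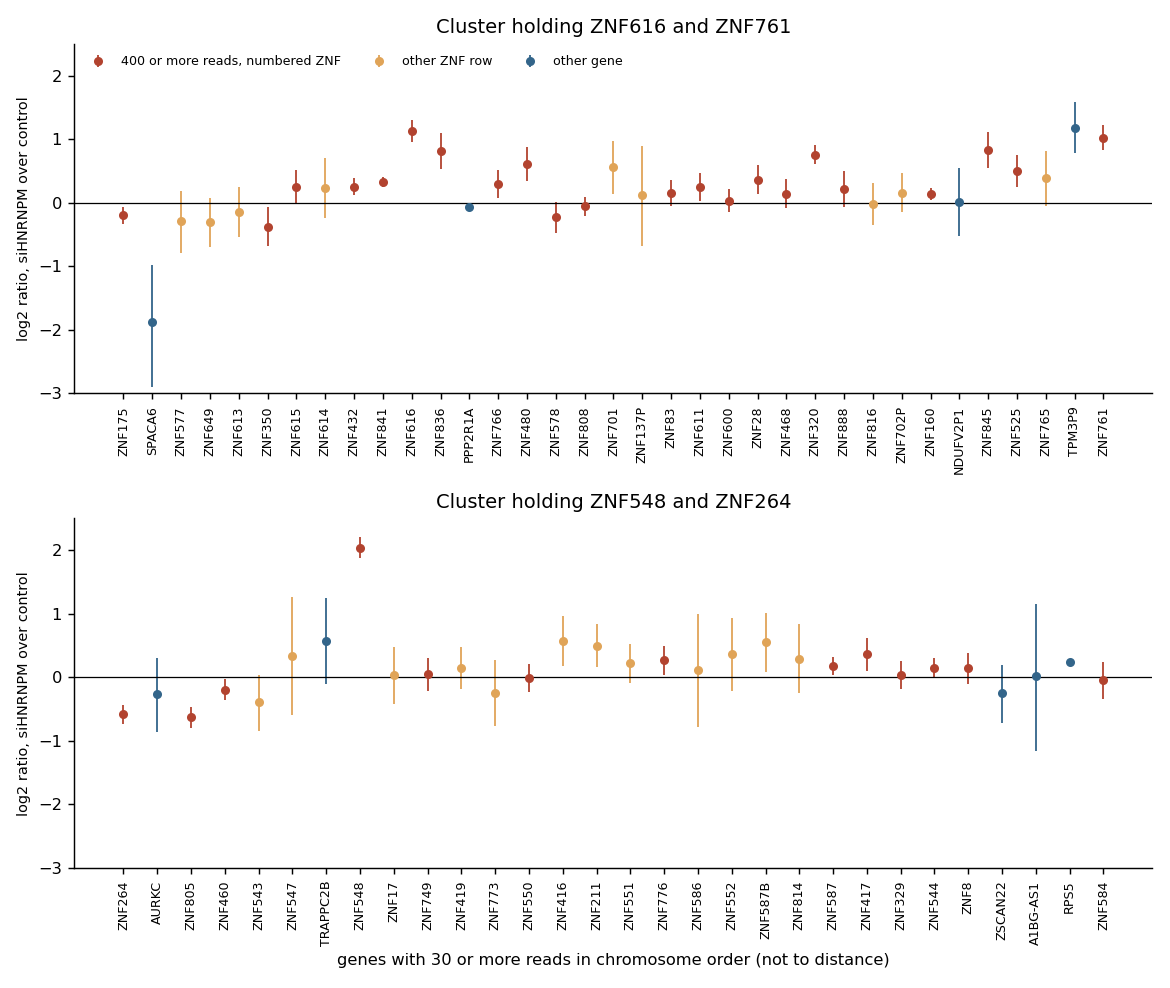
Log2 ratio, siHNRNPM over control, of genes with 30 or more reads in chromosome order along the cluster of ZNF616 and the cluster of ZNF548, with 95% counting intervals; red points are the chosen ZNF genes, orange points other ZNF rows and blue points other genes. High values occur in several places along the first cluster, while ZNF548 stands apart from its neighbours in the second.

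Reads shared between paralogs bear on several of these values. Of all 227 genes, 13 share 5% or more of their 50-base stretches with another gene, among them ZNF761 with 9.27% (mainly ZNF765) and ZNF845 with 7.01% (mainly ZNF813). The share was 2.17% for ZNF616 and 3.17% for ZNF320. Overlap of exons with another gene reached 10% of bases in 52 of the 227, on the same strand in 24 and on the opposite strand in 30. ZNF320 had 72.5% of its exon bases overlapped on the same strand, by ZNF468, and ZNF836 had 13.1%. How the authors' counter treated such reads is not given in the sources used here. ZNF616, ZNF480 and ZNF548 passed neither limit.

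Promoter sequences are shown for the higher genes of this cluster because 3 of them share a stretch there. They come from a RefSeq table on GRCh38.p14, where 199 of the 227 genes were matched. Only the 250 bases before each start were searched, not the 50 bases after it that the table also holds. ZNF761, ZNF845 and ZNF320 were set side by side after their ratios were seen. They hold the same 20 bases, in capitals in these last 90 bases before each start, 5′ to 3′ along the gene, at chr19:53431894-53431983 (plus strand), chr19:53333659-53333748 (plus) and chr19:52897695-52897784 (minus).
ZNF761: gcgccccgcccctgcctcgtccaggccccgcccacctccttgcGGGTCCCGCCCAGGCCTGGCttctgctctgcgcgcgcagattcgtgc
ZNF845: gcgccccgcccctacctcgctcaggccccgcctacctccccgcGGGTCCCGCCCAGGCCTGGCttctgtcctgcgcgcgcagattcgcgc
ZNF320: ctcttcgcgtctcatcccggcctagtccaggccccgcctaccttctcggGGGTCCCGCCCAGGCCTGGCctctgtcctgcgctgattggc

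Among the 27305 genes of that table, 5 held these 20 bases on either strand within 250 bases of the start. The others were ZNF765, which also lies in the cluster, and its read-through gene with ZNF761. ZNF765 had 86 reads in the siHNRNPM library and 100 in the control, too few for the chosen set, with a log2 ratio of 0.39 (-0.05 to 0.82). A role of the stretch in these ratios was not tested.

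The paralogs ZNF264 and ZNF805, both lower in the siHNRNPM library, also share a stretch, of 16 bases. It is in capitals in the last 90 bases before each start at chr19:57191410-57191499 and chr19:57240542-57240631, both on the plus strand.
ZNF264: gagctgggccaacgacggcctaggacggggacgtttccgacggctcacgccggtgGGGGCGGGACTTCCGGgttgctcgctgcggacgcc
ZNF805: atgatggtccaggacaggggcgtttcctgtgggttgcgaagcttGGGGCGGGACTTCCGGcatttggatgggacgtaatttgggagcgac

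The table held this stretch in 13 genes, most of them no zinc-finger genes. It ends in CTTCCGG, the core that ETS transcription factors recognise. ZNF548 holds the same core on the other strand, in capitals in this window at chr19:57389699-57389788 on the plus strand, which ends 65 bases before the start.
ZNF548: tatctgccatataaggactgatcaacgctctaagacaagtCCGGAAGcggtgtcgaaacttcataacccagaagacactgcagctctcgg

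The core thus lies before ZNF548, which was higher, and before ZNF264 and ZNF805, which were lower. These genes were picked with their ratios known, and a role of the core was not tested. Over the matched ZNF genes, 61 of 199 (30.7%) held CTTCCGG on either strand in these 250 bases, against 21.0% of 7104 matched genes with 400 or more reads and 10.2% of all 27305. The median log2 ratio was 0.05 in the 61 genes with it and 0.03 in the 138 without it. In all, 8 short strings were searched on both strands. ACTACA, part of the motif of ZNF143, was found in 21.1% of ZNF genes and 10.6% of genes with 400 or more reads. ACTACAA, which contains it, was found in 8.54% and 4.70%. The E-box CACGTG and the GC-box core GGGCGG were less frequent in ZNF genes, at 5.53% against 11.9% and 68.3% against 77.4%. CCAAT was found in 47.7% against 42.0%, TATAAA in 7.04% against 6.73% and CGCATGCG in 5.03% against 4.49%. A match of letters is a description and says nothing on binding.

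Outside chromosome 19, 1 of 129 ZNF genes was higher by 1.5-fold (0.775%, against 1.34% of all genes) and 31 had an interval above a ratio of 1 (24%, against 23.7%). ZNF474 on chromosome 5, in which the C2H2 pattern found no finger, stood at 24.8 against 15.9 CPM, a log2 ratio of 0.63 (0.41 to 0.86). It was the 1 gene past 1.5-fold there. ZNF337, a KRAB gene on chromosome 20, stood at 114 against 76.6 CPM, a log2 ratio of 0.58 (0.47 to 0.68). An antisense gene, ZNF337-AS1, overlaps 73.8% of its exon bases, and without known strand the reads of both cannot be told apart. ZNF629 on chromosome 16 stood at 33.2 against 22.5 CPM, a log2 ratio of 0.56 (0.36 to 0.75). ZNF195 on chromosome 11 had a log2 ratio of 0.46 (0.31 to 0.62), and ZNF234, in another group on chromosome 19, one of 0.51 (0.29 to 0.74). These 4 genes had intervals clear of a ratio of 1 and did not reach 1.5-fold. ZNF337 passed it with total-count scaling (0.59), upper-quartile scaling (0.61) and a thinned control library (0.61), and ZNF629 with upper-quartile scaling (0.59).

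The lowest gene of the family was ZNF862 at chr7:149838367-149867479, which encodes a KRAB protein related to hAT transposases rather than a C2H2 array. It stood at 13.8 CPM in the siHNRNPM library (180 reads) and 29.3 CPM in the control (582 reads). The control was thus higher by 2.13-fold, a log2 ratio of -1.09 (-1.34 to -0.85). An antisense gene overlaps 26.3% of its exon bases. ZNF322 on chromosome 6 stood at 11.2 against 19.5 CPM, a log2 ratio of -0.80 (-1.09 to -0.52). It shares 26.0% of its 50-base stretches with another gene, mainly the pseudogene ZNF322P1. ZNF709 stood at 11.6 against 17.5 CPM, a log2 ratio of -0.59 (-0.87 to -0.31), and 76.4% of its exon bases are overlapped on the same strand. It fell short of 1.5-fold with total-count scaling (-0.58) and upper-quartile scaling (-0.56). With ZNF805 these are the 4 genes lower by 1.5-fold, and each of them has an overlap or a paralog that could affect its count.

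Other genes among the lowest did not reach 1.5-fold. ZNF24, a SCAN protein known to repress VEGFA transcription, stood at 99.3 against 143 CPM, a log2 ratio of -0.53 (-0.63 to -0.44). ZNF445, a KRAB protein that helps to maintain genomic imprints, stood at 55.4 against 77.7 CPM, a log2 ratio of -0.49 (-0.62 to -0.36). ZNF268 stood at 22.1 against 31.7 CPM, a log2 ratio of -0.52 (-0.73 to -0.32). All 3 had intervals clear of a ratio of 1. ZNF395, which is induced by hypoxia, had a log2 ratio of -0.43 (-0.55 to -0.32), with 34.9% of exon bases overlapped on the same strand by FBXO16. ZNF652, a DNA-binding repressor, had one of -0.42 (-0.54 to -0.30), and ZNF562 one of -0.38 (-0.48 to -0.28), with 18.9% of exon bases overlapped by an antisense gene.

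**Figure D3:**
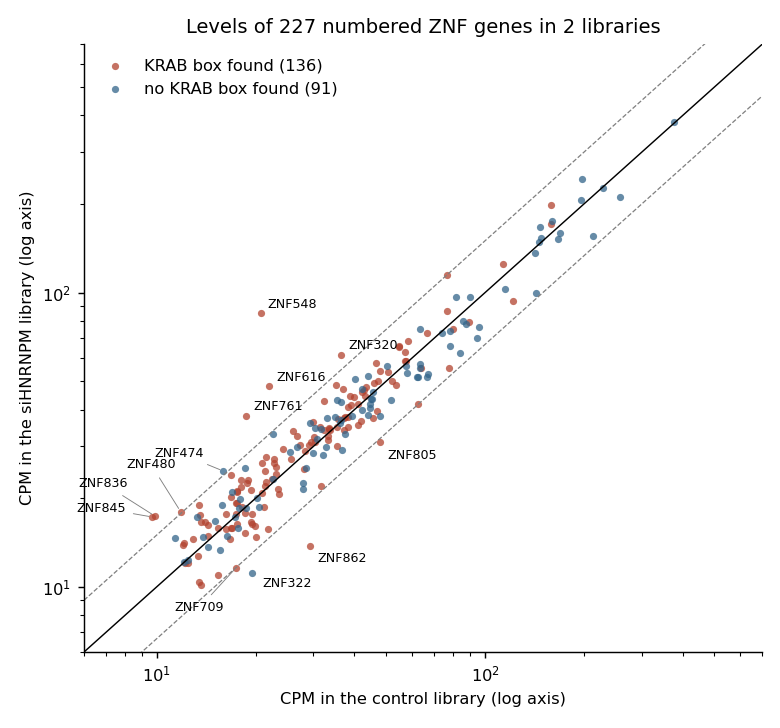
Level of each of the 227 numbered ZNF genes in the control library against the siHNRNPM library, in CPM on log axes; the solid line marks equal levels, dashed lines mark 1.5-fold, and colour gives whether a KRAB box was found. Genes past the 1.5-fold rule are named, and none of them stood above 85.3 CPM in either library.

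The genes with the highest levels per length did not reach 1.5-fold. In the control, ZNF438 stood at 88.3 CPM per kb of exon, ZNF672 at 69.0, ZNF146 at 40.9, ZNF841 at 37.1 and ZNF330 at 35.5, where the median of the family was 5.27. Neighbours in this order such as ZNF841 and ZNF330 differ little, and no replicate gives a spread for them. ZNF438 had 382 CPM in the siHNRNPM library and 377 in the control, a log2 ratio of 0.02 (-0.03 to 0.07). ZNF672 stood at 212 against 258 CPM, a log2 ratio of -0.28 (-0.35 to -0.22), and ZNF146, a protein made almost wholly of fingers, at 159 against 170 CPM, a log2 ratio of -0.09 (-0.17 to -0.01). ZNF841 was the one of these that lies in the ZNF616 cluster, at 199 against 159 CPM, a log2 ratio of 0.32 (0.25 to 0.40). Across the 227 genes log2 CPM of the 2 libraries had a Pearson correlation of 0.95, a description across genes that share both libraries.

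Protein architecture was read from the coding sequences. A KRAB box was found in 136 of the 227 genes and no KRAB box in 91. The median KRAB gene held 13 fingers and the median gene without one 7. KRAB genes had a median log2 ratio of 0.07, with 43 intervals (31.6%) above a ratio of 1 and 22 (16.2%) below it. Genes without a KRAB box had a median of -0.02, with 22 (24.2%) above and 26 (28.6%) below, close to the 23.7% and 31.4% of all genes. The medians differ by less than the quartile range within each set, and the difference was not tested. Outside the ZNF616 cluster the 114 KRAB genes had a median of 0.05, with 30 intervals (26.3%) above a ratio of 1 and 20 (17.5%) below it. Without that cluster the share above a ratio of 1 was thus nearer to that of all genes, while the share below it stayed lower.

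Position and KRAB box go together, since 82 of the 136 KRAB genes lie on chromosome 19. KRAB genes on chromosome 19 had a median log2 ratio of 0.13, and 0.07 for the 60 of them outside the ZNF616 cluster. The 54 KRAB genes on other chromosomes had a median of 0.04. Genes without a KRAB box had medians of 0.00 on chromosome 19 (16 genes) and -0.03 elsewhere (75 genes). Medians were thus somewhat higher with a KRAB box in either place, by small amounts. SCAN proteins numbered 9, with a median of -0.16, none with an interval above a ratio of 1 and 3 (33.3%, against 31.4% of all genes) below it, namely ZNF24, ZNF496 at -0.17 (-0.26 to -0.07) and ZNF397 at -0.15 (-0.28 to -0.02). ZNF449, at 0.15 (-0.08 to 0.39), was the highest of them.

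**Figure D4:**
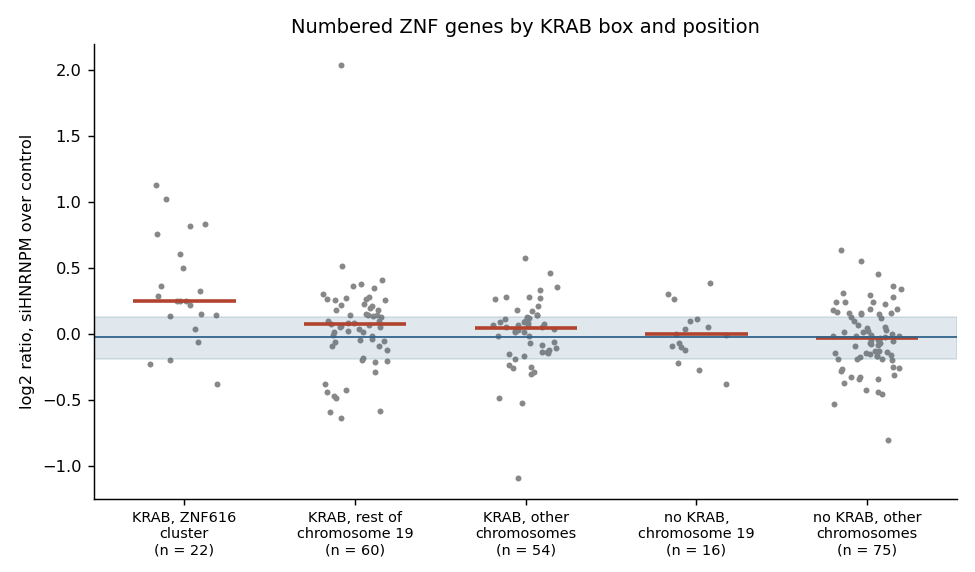
Log2 ratio, siHNRNPM over control, of numbered ZNF genes split by KRAB box and position; each grey point is a gene, red bars are medians, and the blue line and band are the median and quartiles of all 9110 genes with 400 or more reads. The 22 genes of the ZNF616 cluster have a median of 0.25, and the other 4 sets have medians from -0.03 to 0.07.

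The ratio had at most a weak relation to the number of fingers. Genes with 16 or more fingers (43) had a median log2 ratio of 0.10, those with 11 to 15 (68) and with 6 to 10 (70) each 0.03, and those with 2 to 5 (33) one of -0.04. The 13 genes with at most 1 finger had a median of 0.08. The ZNF616 cluster had a median of 15.5 fingers, against 10 for the family, so the set with the most fingers includes members of that cluster. Fingers and cluster were not separated. Across the 227 genes Spearman's rho with the log2 ratio was 0.10 for fingers, -0.15 for exon bases, -0.13 for reads and 0.12 for the share of 50-base stretches found in another gene. These are descriptions over genes that share both libraries.

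Zinc-finger proteins that act on RNA or the ribosome differed little between the libraries. The list holds 13 genes, 12 of them in the chosen set, with a median log2 ratio of 0.05. Its intervals lay above a ratio of 1 in 2 (15.4%) and below it in 1 (7.69%), against 23.7% and 31.4% of all genes. ZNF106, an RNA-binding protein needed in motor neurons and muscle, stood at 155 against 213 CPM, a log2 ratio of -0.46 (-0.53 to -0.38). ZNF598, the ubiquitin ligase that marks collided ribosomes, stood at 52.2 against 44.2 CPM, a log2 ratio of 0.24 (0.09 to 0.39). ZNF277 stood at 75.4 against 63.6 CPM, a log2 ratio of 0.25 (0.12 to 0.37). The other genes of the list had intervals that spanned a ratio of 1. They included ZNF207, a spindle protein that binds BUB3, at -0.02 (-0.09 to 0.04), and ZNF638, which takes part in silencing of unintegrated retroviral DNA, at 0.06 (-0.03 to 0.14). ZNF326, a subunit of the complex that links RNA polymerase II to mRNP particles, was at -0.02 (-0.13 to 0.10), and ZNF473, of histone pre-mRNA processing, at -0.09 (-0.35 to 0.17). ZNF622 and ZNF593, of maturation of the large ribosomal subunit, were at 0.05 (-0.14 to 0.23) and 0.15 (-0.11 to 0.41).

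Of 19 listed partners of corepressors and chromatin complexes, 15 had 400 or more reads, with a median log2 ratio of -0.09. Intervals lay above a ratio of 1 in 3 (20%) and below it in 6 (40%), where all genes gave 23.7% and 31.4%, so the list leaned the same way as the table. ZNF516, a partner of the demethylase KDM1A, stood at 51.8 against 66.8 CPM, a log2 ratio of -0.37 (-0.50 to -0.23). ZNF592, which joins ZNF687 and ZMYND8 in a transcriptional coregulator module, stood at 52.9 against 66.9 CPM, a log2 ratio of -0.34 (-0.47 to -0.21). Its partner ZNF687 was at 0.16 (0.02 to 0.30) and ZMYND8 at 0.02 (-0.10 to 0.13), so genes of this module had ratios of both signs. ZNF462 was at -0.32 (-0.44 to -0.21) and ZNF507 at -0.27 (-0.41 to -0.13). ZNF644, a partner of the methyltransferases EHMT1 and EHMT2, was at -0.16 (-0.28 to -0.05). On the higher side stood ZNF276 at 0.28 (0.12 to 0.45) and ZNF281, a regulator of pluripotency and of epithelial to mesenchymal transition, at 0.24 (0.13 to 0.35). No gene of this list reached 1.5-fold. ZNF532, ZNF703, ZNF521 and ZNF423 were under 400 reads.

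Factors that bind promoters were measured in 12 of 12 cases, with a median of -0.08. Intervals lay above a ratio of 1 in 1 (8.33%) and below it in 4 (33.3%), the latter near the 31.4% of all genes. ZNF143, the activator of snRNA and many mRNA promoters, stood at 38.4 against 43.9 CPM, a log2 ratio of -0.19 (-0.35 to -0.03). ZNF384 was at -0.26 (-0.40 to -0.13), ZNF740 at -0.26 (-0.41 to -0.11) and ZNF131, a BTB protein, at -0.25 (-0.37 to -0.13). ZNF770 was at 0.19 (0.11 to 0.27). All 5 differences were small beside the 1.5-fold limit. ZNF410, whose main known target is the NuRD gene CHD4, was at -0.09 (-0.24 to 0.07), and CHD4 itself at 0.11 (0.05 to 0.16).

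KRAB proteins known to bind transposable elements were measured in 6 of 12 cases, with a median log2 ratio of 0.12. Intervals lay above a ratio of 1 in 3 (50%, against 23.7% of all genes) and below it in none. ZNF91, which binds SVA elements, stood at 30.4 against 29.2 CPM, a log2 ratio of 0.06 (-0.13 to 0.25). ZNF417 and ZNF587, near-identical proteins that bind endogenous retroviruses, were at 0.37 (0.11 to 0.63) and 0.18 (0.04 to 0.32). Reads of this pair may be split, since 31.1% and 19.5% of their 50-base stretches occur in another gene. ZNF33A, whose symbol ends in a letter and so lies outside the chosen set, stood at 44.5 against 29.1 CPM, a log2 ratio of 0.61 (0.44 to 0.78). ZNF808, which silences elements during pancreas development, was at -0.06, as given with its cluster, and ZNF248 at -0.07 (-0.25 to 0.11). ZNF93, ZNF649, ZNF534, ZNF765, ZNF382 and ZNF479 were under 400 reads.

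**Figure D5:**
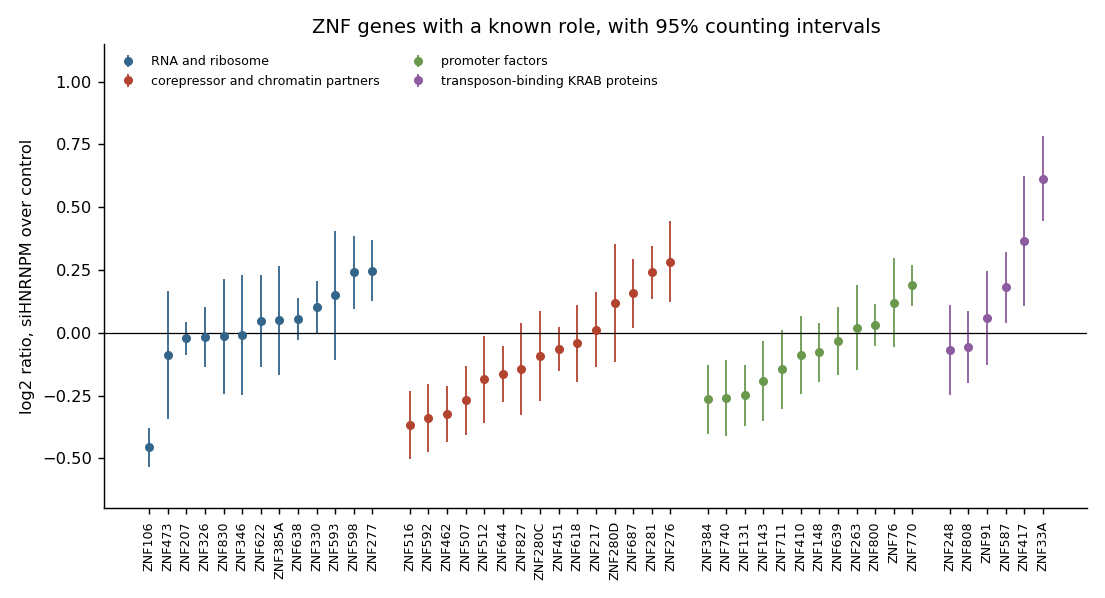
Log2 ratio, siHNRNPM over control, of genes with 400 or more reads in 4 lists of zinc-finger genes with known roles, with 95% counting intervals. Values run from -0.46 for ZNF106 to 0.61 for ZNF33A, and most intervals in the RNA list span 0.

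The machinery that KRAB proteins recruit was measured with 400 or more reads for 34 of 37 listed genes, with a median log2 ratio of 0.00. Intervals lay above a ratio of 1 in 10 and below it in 10 (29.4% each), against 23.7% and 31.4% of all genes. None passed 1.5-fold, where 1.34% of all genes were higher and 2.47% lower. TRIM28, the corepressor itself, stood at 208 against 210.4 CPM, a log2 ratio of -0.01 (-0.09 to 0.06). SETDB1 was at -0.26 (-0.43 to -0.10) and its stabilising partner ATF7IP at -0.38 (-0.50 to -0.26). Heterochromatin protein genes differed from each other, with CBX3 at 0.33 (0.26 to 0.40), CBX1 at 0.16 (0.08 to 0.23) and CBX5 at -0.17 (-0.25 to -0.08). The largest differences were those of MBD3 at -0.51 (-0.72 to -0.30), UHRF1 at -0.47 (-0.59 to -0.36), SUV39H2 at 0.42 (0.26 to 0.57) and MTA1 at 0.39 (0.25 to 0.53). EHMT2 had 0 reads and DAXX 2 reads in each library, and both have transcripts on alternate sequences of the reference. The same property touched the ZNF symbols: 19 of the 478 have such a copy, of which 18 were under 400 reads and 13 under 10, so their absence from the chosen set cannot be read as low expression. ZNF430 was the 1 chosen gene with such a copy.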

How the data were processed

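The authors deposited raw read counts, whole numbers listed by symbol. Per the submitters' processing notes, HISAT2 2.0.4 and GRCh38 were used, in roles that are not spelled out. The counter, annotation, strand setting and treatment of multi-mapped reads are not given in the sources used here. Counts of all 54261 rows were scaled by TMM (edgeR 4.0.16, R 4.3.3; factors 1.002 and 0.9976) and given as CPM. The log2 ratio of each gene has a 95% exact Clopper-Pearson interval from the split of its reads. Such intervals cover counting error only, and they treat reads as independent molecules, which PCR reads are not. With 400 to 12483 reads a gene, their half-width ran from 0.05 to 0.31 on the log2 scale. Positions, exon lengths, overlaps, shared 50-base stretches and coding sequences came from GENCODE 29 on GRCh38, which held all 227 genes.

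RefSeq proteins had been planned for the domain search, and translated GENCODE coding sequences were used instead. The KRAB and SCAN patterns were widened once after reading protein sequences, to any isoform and a longer N-terminal part, and diverged boxes may still be missed. Longer forms of ACTACAA and CGCATGCG were also tried in promoters and are not reported. Members, lists and the rule for naming genes were chosen with earlier results of these data known. The rule named 12 genes in each direction by the nearest bound of the interval, every gene past 2-fold, the 5 highest levels per length, members of the role lists, up to 4 machinery genes and 3 genes on each side of the read limit. Other genes named, such as those beside the clusters, SCAN genes, SETDB1 and the CBX genes, were chosen after their values were seen. The procedure was tested on simulated data. Alternatives covered scaling (total count, DESeq2 1.42.0 size factors, upper quartile), thinning of the control library, other read limits and leaving out sets of genes.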

Additional observations from a re-analysis of the deposited data

How the results depend on the processing

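The count of ZNF genes higher by 1.5-fold was 8 of 227 as reported. It was 28 of 423 with no read limit and 3 of 125 with a limit of 1000 reads. Without the ZNF616 cluster it was 2 of 205. With the limit on control reads alone it was 5 of 224, and with the limit on siHNRNPM reads alone 11 of 232. By 2-fold, 3 of 227 as reported, it was 15 of 423 with no limit and 1 of 205 without the cluster. The count lower by 1.5-fold was 4 of 227 as reported, 13 of 423 with no limit and 1 of 125 with 1000 reads. It was 2 of 232 with the limit on siHNRNPM reads alone and 5 of 224 with the limit on control reads alone. Without members that share sequence it was 2 of 214, and without members with overlapped exons 2 of 175. By 2-fold, 1 of 227 as reported, it was 3 of 423 with no limit and 0 of 125 with 1000 reads. Without members with overlapped exons it was 0 of 175. Intervals wholly above a ratio of 1 numbered 65 of 227, and 35 of 125 with a limit of 1000 reads. The pooled log2 ratio of 0.01 was 0.0017 with a limit of 1000 reads, 0.047 with upper-quartile scaling and -0.0089, so of the other sign, without the cluster. Upper-quartile scaling moved the median of all genes by 0.03. Of 69 single genes tried under the 3 other scalings and a thinned control library, 5 near a ratio of 1 changed sign, each with upper-quartile scaling (ZNF207, ZNF326, ZNF346, ZNF639 and ZNF830). Another 4 crossed 1.5-fold in some setting (ZNF337, ZNF629, ZNF264 and ZNF709), and ZNF761 fell under 2-fold with the control thinned (0.96). Leaving out the cluster and the members with overlapped exons or shared sequence, and the limits on reads of 1 library, were chosen after seeing the data. Each change of a read limit or set alters which genes are counted and how many, so a changed count is not by itself a changed share. No paired analysis was possible because each group holds 1 library, which also left no replicate to leave out.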

Other observations

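Other families of zinc-finger genes were small sets. The median log2 ratio was -0.05 over 24 ZBTB genes, which carry a BTB dimerisation domain, 0.02 over 8 ZSCAN genes and -0.09 over 5 ZKSCAN genes. It was -0.14 over 9 ZFP genes, 0.00 over 9 KLF genes and -0.09 over 5 SP genes. The KLF genes differed among themselves, with 4 intervals above a ratio of 1 and 4 below it (44.4% each, against 23.7% and 31.4% of all genes). Of them 2 were lower by 1.5-fold (22.2%, against 2.47% of all genes). Of the ZBTB genes 1 was higher (4.17%, against 1.34%) and 2 were lower by 1.5-fold (8.33%, against 2.47%). Of these 2, 1 was lower by 2-fold (4.17%, against 0.22%). Of the ZFP genes 4 (44.4%, against 31.4%) had an interval below a ratio of 1 and 1 (11.1%, against 23.7%) above it. Sets this small give coarse shares. ZNF symbols with a letter after the number (17 genes) had a median of 0.03. Numbered ZNF genes with 100 to 399 reads (114 genes), too few for the chosen set, had a median of 0.07 with quartiles at -0.24 and 0.28.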
